A study of Homo sapiens with 14 samples.

Results

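Here 9 genes of MHC class I antigen presentation were followed through every peak list of the series. They were taken by name: HLA-B, HLA-C and HLA-E for the heavy chains, B2M for the light chain, TAP1 and TAP2 for the peptide transporter, PSMB8 and PSMB9 for the immunoproteasome, and NLRC5 for the transactivator. All 9 were found among the 19970 protein-coding genes on the autosomes and X in GENCODE release 44 (hg38). At each gene, regions were read within 1 kb of the start, meaning the 5′ end of the canonical transcript, and over the gene record with 10 kb either side.

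The data are CUT&RUN libraries from TC-32 cells, all labelled WT and without treatment. TC-32 is an established line from a Ewing sarcoma, with the gene fusion EWSR1::FLI1. In CUT&RUN an antibody guides a nuclease to its target, and the DNA cut free there is sequenced. The study asked which chromatin states the fusion associates with. Of 14 libraries, 4 were made with an antibody against FLI1 (set A replicates 1 and 2, set B replicates 1 and 2), 2 against H3K27ac (set A), 2 against H3K27me3 (set B), 2 against H3K9me3 (set B) and 4 with control IgG (2 per set). H3K27ac is a mark of active promoters and enhancers, H3K27me3 a mark of Polycomb repression and H3K9me3 a mark of heterochromatin. All groups share the same untreated cells, and there is no arm with the fusion removed. The antibody was raised against FLI1, so the lists are called FLI1 here. The meaning of the set letters is not given in the labels, nor is it stated whether replicates came from separate cultures, so a spread between libraries may be technical.

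MHC class I molecules display peptides from inside the cell to CD8+ T cells. The immunoproteasome cuts proteins into peptides, the TAP1-TAP2 transporter carries them into the endoplasmic reticulum, and a heavy chain folds around them together with beta-2-microglobulin. These genes are known to be induced by interferon-gamma, with NLRC5 recruited to the class I promoter through the RFX, CREB/ATF and NF-Y factors, and class I display is often low in tumours, Ewing sarcoma included. FLI1 and its fusion bind the ETS core GGAA (TTCC on the other strand), and the fusion is also known for binding runs of GGAA repeats.

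The DNA at or beside the FLI1 regions is shown for the places the results turn on. The first 4 sequences lie just upstream of B2M (chr15:44711324-44711508, plus strand), HLA-B (chr6:31357294-31357429, minus strand), HLA-C (chr6:31272106-31272342, minus strand) and TAP2 (chr6:32838823-32838989, minus strand), each written in the direction of its gene. These 4 were cut by position upstream of the start, not by summit. Every FLI1 summit at the starts of B2M, HLA-B and TAP2 lay outside the stretch printed for that gene. At HLA-C some summits lay inside and some outside. The set A replicate 2 regions at HLA-B and TAP2 did not reach the printed stretches. The fifth is the stretch of 224 bases that all 4 FLI1 libraries shared between the starts of TAP1 and PSMB9 (chr6:32853818-32854041, plus strand). The last is 121 bases under the strongest FLI1 region found near any of the genes, downstream of B2M (chr15:44726908-44727028, plus strand). All are reference sequence of hg38, not that of the cell line, and capitals mark every GGAA or TTCC.
B2M: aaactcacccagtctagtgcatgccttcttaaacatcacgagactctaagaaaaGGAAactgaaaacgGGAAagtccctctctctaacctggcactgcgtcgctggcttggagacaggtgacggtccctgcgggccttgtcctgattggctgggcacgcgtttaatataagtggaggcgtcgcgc
HLA-B: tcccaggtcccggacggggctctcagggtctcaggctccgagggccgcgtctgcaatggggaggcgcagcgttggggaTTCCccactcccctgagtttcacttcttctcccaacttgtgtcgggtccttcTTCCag
HLA-C: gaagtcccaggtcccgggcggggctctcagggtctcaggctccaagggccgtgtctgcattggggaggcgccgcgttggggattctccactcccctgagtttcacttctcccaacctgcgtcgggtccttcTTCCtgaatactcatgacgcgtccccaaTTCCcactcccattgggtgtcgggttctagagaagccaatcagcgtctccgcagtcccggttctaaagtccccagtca
TAP2: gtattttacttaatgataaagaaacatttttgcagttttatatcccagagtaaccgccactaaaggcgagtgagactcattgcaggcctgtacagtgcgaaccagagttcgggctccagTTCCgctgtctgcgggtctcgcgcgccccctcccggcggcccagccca
TAP1 and PSMB9: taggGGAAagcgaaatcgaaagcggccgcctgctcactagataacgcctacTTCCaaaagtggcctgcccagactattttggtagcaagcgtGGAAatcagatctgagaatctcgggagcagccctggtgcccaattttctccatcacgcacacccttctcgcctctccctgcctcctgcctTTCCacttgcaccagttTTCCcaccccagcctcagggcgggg
downstream of B2M: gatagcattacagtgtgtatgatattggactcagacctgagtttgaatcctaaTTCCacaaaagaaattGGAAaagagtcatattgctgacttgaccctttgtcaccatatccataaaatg

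No piece holds a GGAA repeat. The printed stretches carry 2 cores at B2M, 2 at HLA-B, 2 at HLA-C, 1 at TAP2, 5 between TAP1 and PSMB9, and 2 downstream of B2M. Across all 42 FLI1 regions that fell within 10 kb of the genes, the longest run was 2 units, and 0 had a run of 4 or more. In the full FLI1 lists, between 3.40% and 4.25% of regions held such a run. Among regions at or above the 98th percentile of their list, the share was 57.8% and 57.3% in the set A libraries, and in set B it was 19.1% and 18.6%.

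FLI1 lay at most of the class I starts, and H3K27ac was in both libraries at a share near that of all genes. A FLI1 region was present within 1 kb of the start in all 4 libraries at 5 of the 9 genes (HLA-E, B2M, TAP1, TAP2 and PSMB9), where the share of all protein-coding genes was 35.4%. In at least 1 library it was present at 8 genes, against 56.6% of all genes, and NLRC5 was the gene without one. H3K27ac was present in both libraries at 1 gene, TAP2, against 12.4%, and in at least 1 library at 5 genes (B2M, TAP1, TAP2, PSMB8 and PSMB9), against 25.1%. FLI1 in all 4 libraries together with H3K27ac in at least 1 was found at 4 genes (B2M, TAP1, TAP2 and PSMB9), against 17.2%. H3K27me3 was at the start of 0 genes, against 9.96%, and H3K9me3 at 0, against 1.25%. TAP1 and PSMB9 count separately here but share 1 FLI1 region, so the members are not independent of each other.

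With the gene and 10 kb either side, FLI1 was present in all 4 libraries at 6 genes, the same as above plus PSMB8, against 56.3% of all genes. H3K27ac was present in both libraries at 4 (TAP1, TAP2, PSMB8 and PSMB9), against 28.3%. H3K27me3 was present in both at 2 (HLA-E and PSMB9), against 17.6%, and H3K9me3 at 2 (HLA-C and B2M), against 25.3%. The 4 genes with H3K27ac are neighbours on chromosome 6 whose windows overlap, and in each library they draw on the same few regions. In all, 42 FLI1 regions over the libraries marked 17 places, 8 H3K27ac regions marked 6, 4 H3K27me3 regions marked 2 and 7 H3K9me3 regions marked 3.

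Of the 9 genes, 7 lie between HLA-F and HLA-DPB1 on chromosome 6 (chr6:29722775-33089696). Of the 130 other protein-coding genes there, 62 (47.7%) had FLI1 at the start in all 4 libraries, beside 4 of the 7. H3K27ac was at the start in both libraries at 20 (15.4%), beside 1 of the 7, and H3K27me3 at 3 (2.31%), beside 0. With 10 kb either side, FLI1 was present at 94 of the others (72.3%) and 5 of the 7, H3K27ac at 54 (41.5%) and 4, H3K27me3 at 12 (9.23%) and 2, and H3K9me3 at 4 (3.08%) and 1. With 7 genes that share regions, these counts are set side by side and were not tested.

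**Figure D1:**
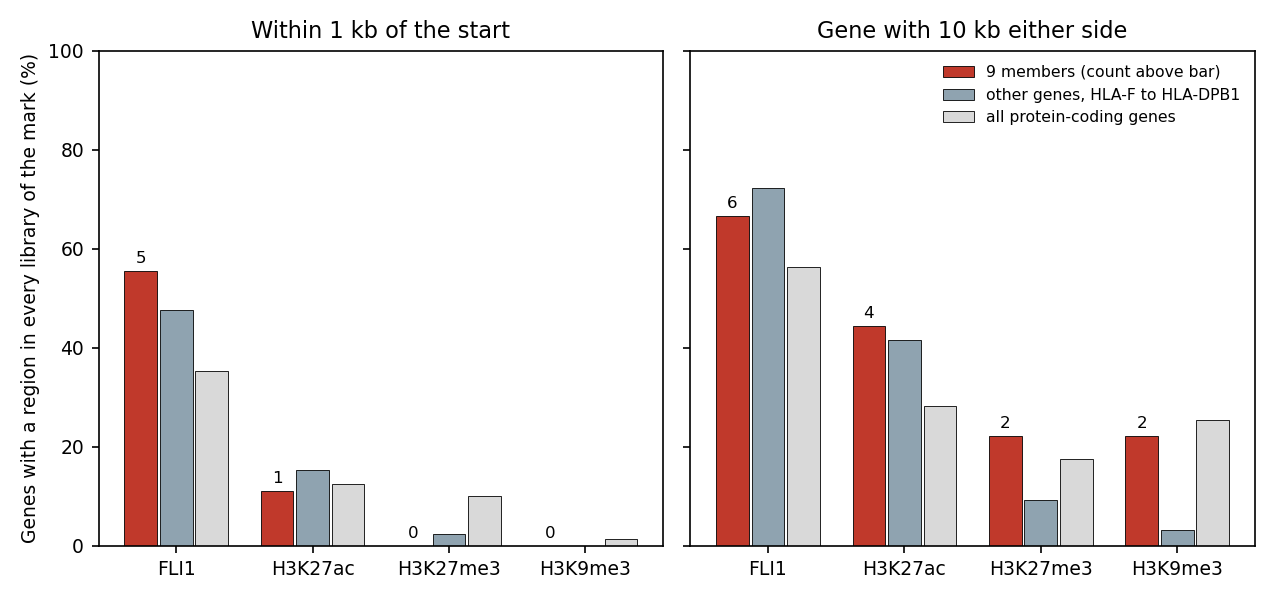
Bars give the percentage of genes with a region in every library of a mark, within 1 kb of the start (left) and over the gene with 10 kb either side (right), for the 9 class I genes, the other genes from HLA-F to HLA-DPB1 and all protein-coding genes. Numbers above the red bars count class I genes: FLI1 stood at 5 starts and H3K27ac at 1, and both repressive marks at 0.

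By −log10 q, the classical heavy chain genes HLA-B and HLA-C had no FLI1 region above the median of its list. HLA-B, a classical heavy chain whose product presents peptides to CD8+ T cells, had FLI1 within 1 kb in 2 of 4 libraries. The fold over IgG was 5.00 in set A replicate 2 and 8.32 in set B replicate 1, with summits 188 and 86 bases inside the gene. The other two libraries had none there. These regions ranked at the 17.1 and 43.6 percentile of −log10 q within their own lists, both in the lower part of the list. The solved depth was 10 and 16 fragments at the summit. In set B, both replicates also had a region near the far 5′ end of the HLA-B gene record (chr6:31367067), 9817 and 10000 bases upstream of the start, with folds of 3.96 and 9.09. Ranked by fold instead, the set B replicate 1 region at the start stood at the 50.9 percentile. The upstream region in set B replicate 2 stood at 59.6 by fold.

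HLA-C, the other classical heavy chain studied, had FLI1 at the start in 3 of 4 libraries. In set A replicate 1 the fold was 6.58, with the summit 275 bases upstream. In set B replicate 1 a pair of regions flanked the start, with folds of 7.06 upstream and 7.84 in exon 2. In set B replicate 2 the fold was 4.92, where 27 fragments at the summit stood over a control level of 4.33, the highest control level among FLI1 regions at these starts, equalled at PSMB8 in the same library. Set A replicate 2 had no region at HLA-C. The mean percentile was 37.1 ± 9.52 (SD, n = 3), below the median of each list. The 250 bases upstream of HLA-B and HLA-C share 226 identical bases (89.0% of aligned columns), and how reads from such similar genes were placed was not tested.

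HLA-E, the non-classical heavy chain that natural killer cells read through NKG2A, had FLI1 at the start in all 4 libraries. In set A the folds were 6.30 and 5.25, and in set B 14.7 and 11.0. Both set B values lay above both set A values, and the percentiles separated likewise, at 43.6 and 32.6 against 85.1 and 77.7. The summits fell between 4 and 62 bases inside the gene, every region covered part of exon 1, and 174 bases were common to the 4 libraries. No H3K27ac region lay within 109368 bases of its start in either library. For HLA-B the nearest H3K27ac was 43132 bases away or more, and for HLA-C 30915, so the 3 heavy chain genes had none within 10 kb.

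B2M, the light chain of every class I molecule, had the highest mean FLI1 percentile of the 9 and, of the genes with a region in all 4 libraries, the smallest spread. In set A the folds were 11.3 and 11.5, in set B 16.3 and 15.2, and −log10 q was 24.8, 24.6, 34.5 and 31.4. The percentiles were 79.4, 80.9, 84.0 and 84.8, a mean of 82.3 ± 2.58 (SD, n = 4), and all 4 libraries stood in the upper part of their lists. The summits lay 300, 275, 254 and 254 bases upstream of the B2M start. That puts them 106, 81, 60 and 60 bases inside PATL2, a gene that starts 194 bases away and is read in the opposite direction. The 633 bases common to the 4 libraries cover both starts, so the region cannot be assigned to either gene from position alone. Set A replicate 2 also had a lower region further inside B2M, of fold 6.69, with its summit 1309 bases from the start. H3K27ac was listed there in replicate 2, with a fold of 4.64 and another region of 3.03 just inside the gene, and was not listed in replicate 1, whose nearest region was 18938 bases away.

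**Figure D2:**
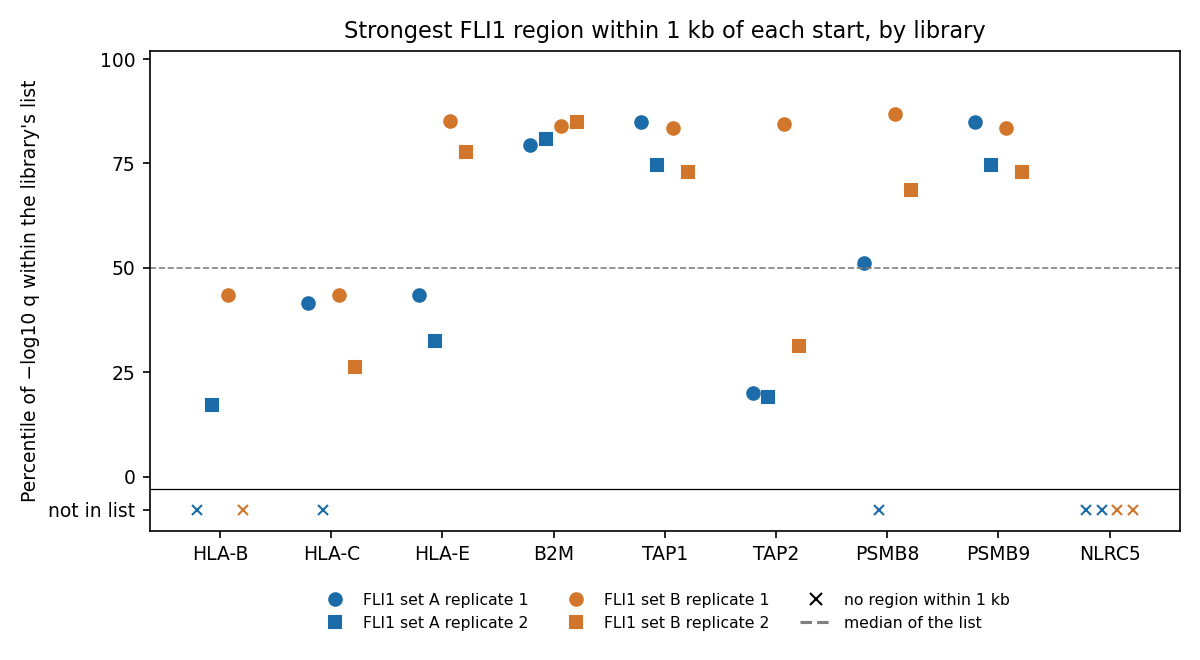
Each point is the percentile of −log10 q, within its own list, of the strongest FLI1 region within 1 kb of a gene start, by library (blue set A, orange set B; circles replicate 1, squares replicate 2; crosses, no region). B2M, TAP1 and PSMB9 sit above the dashed median in every library, while HLA-B and HLA-C sit below it wherever a region was listed.

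The strongest FLI1 binding near any of the genes was not at a start. It lay downstream of B2M, beyond its end, and ran across the 5′ end of the gene record of TRIM69 (chr15:44728988), 17471 bases from the B2M start. Set A replicate 1 had 1 region of fold 60.4 (chr15:44725939-44730146) and set A replicate 2 had 1 of fold 54.9 (chr15:44725975-44729926), at the 98.6 and 98.5 percentile of their lists. Set B split the same stretch into several regions, with the highest folds 20.1 in replicate 1 and 26.5 in replicate 2, at the 92.9 and 95.3 percentile. These set B regions had their summits at chr15:44729073 and chr15:44729077, inside the TRIM69 record. All 4 libraries also placed a summit between 15256 and 15484 bases from the B2M start, and in 3 of the 4 it fell inside the printed stretch, whose 2 ETS cores stand apart from each other. No H3K27ac was listed within 10 kb of B2M outside the start itself. That window ends before the set B summits inside the TRIM69 record, so H3K27ac of replicate 2 over the far part of the FLI1 stretch was not read. The nearest H3K27ac region in replicate 1 lay 18938 bases from the B2M start, on a side that was not recorded. The FLI1 stretch ended 18629 bases from that start, so replicate 1 had no H3K27ac region over it. The canonical start of TRIM69 lies further on, 25011 bases from that of B2M, and no gene was assigned to the region.

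**Figure D3:**
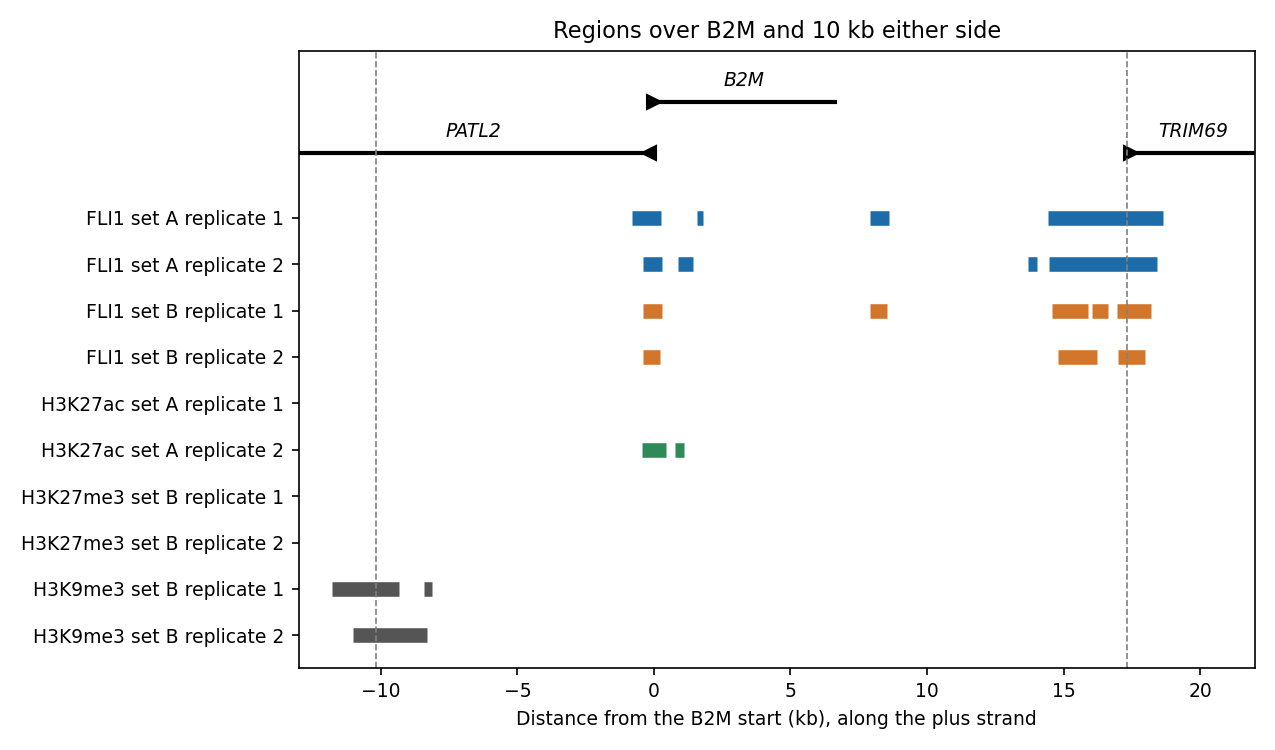
Bars are the listed regions of the 10 libraries that touch the B2M window (dashed lines, the gene record with 10 kb either side), against distance from the B2M start in kb; black lines are genes, with an arrowhead at the start (TRIM69 by its gene record). FLI1 stood over the shared PATL2-B2M start and 15 to 18 kb downstream in all 4 libraries, and H3K9me3 upstream, within PATL2.

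TAP1 and PSMB9 start 488 bases apart and face away from each other, and 1 FLI1 region per library served both. TAP1 is 1 chain of the peptide transporter, and PSMB9 is an immunoproteasome subunit that replaces a constitutive one. Set A gave folds of 16.0 and 10.6 and set B gave 11.6 and 9.80, with percentiles of 84.9, 74.6, 83.5 and 73.0, a mean of 79.0 ± 6.08 (SD, n = 4). Here the sets did not separate in fold or in percentile of −log10 q, and in each set replicate 1 stood above replicate 2. The summits lay between 171 and 246 bases upstream of TAP1, in the printed stretch. H3K27ac was listed in replicate 2 alone, with a fold of 4.50, over exon 1 of TAP1. It shared 0 bases with any FLI1 region.

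TAP2, the other chain of the transporter, was the 1 gene with both FLI1 in all 4 libraries and H3K27ac in both at its start. For set A the FLI1 folds were 5.36 and 5.08, for set B 18.0 and 5.87. Set B replicate 1 stood alone: its percentile was 84.5, whereas the other three were 19.9, 19.0 and 31.3. It also had 36 fragments at the summit, beside 12, 10 and 24. The summits ran from 11 bases upstream to 296 bases inside the gene, and only 23 bases were common to the 4 libraries. H3K27ac had a fold of 5.65 in replicate 1 and of 5.86 and 5.18 in replicate 2. The summits lay inside the gene, the replicate 1 region reached 13 bases upstream of the start, and 497 of 683 H3K27ac bases in replicate 1 and 208 of 494 in replicate 2 fell within FLI1 regions.

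PSMB8, the immunoproteasome subunit encoded between TAP2 and TAP1, had FLI1 at the start in 3 of 4 libraries. The folds were 7.09 in set A replicate 1 and 15.2 and 7.87 in set B, and set A replicate 2 had none. The percentiles were 51.2, 86.8 and 68.5, a mean of 68.8 ± 17.8 (SD, n = 3), all above the median. The summits fell 468 to 571 bases upstream of the canonical start, by the 5′ end of the gene record (chr6:32844679), where another transcript begins. H3K27ac was listed in replicate 1, with a fold of 4.35 and a summit 281 bases inside the gene, and not in replicate 2 within 5518 bases. H3K27ac of TAP1 and PSMB9 thus came from one library and that of PSMB8 from the other, and each ranked in the lower part of its list, at the 23.3 and 14.5 percentile.

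**Figure D4:**
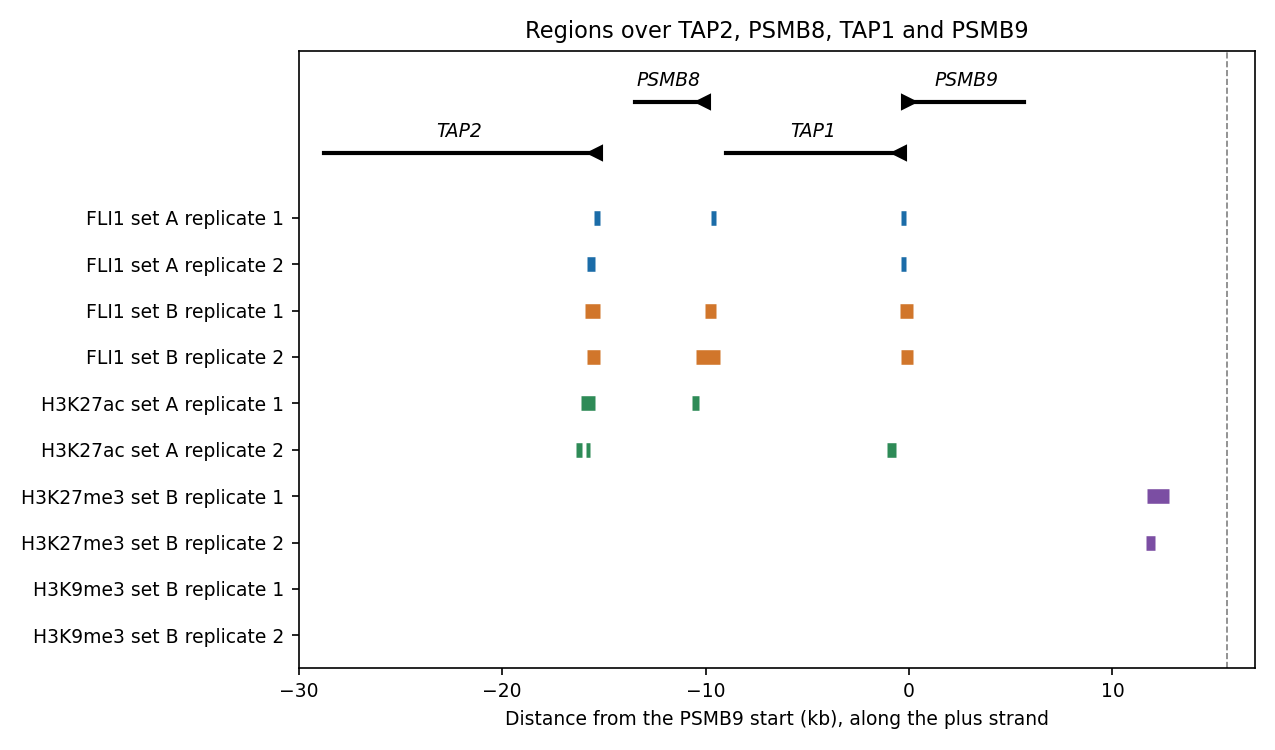
Bars are the listed regions of the 10 libraries over TAP2, PSMB8, TAP1 and PSMB9, against distance from the PSMB9 start in kb; black lines are canonical transcripts with an arrowhead at the start, and the dashed line is the end of the PSMB9 window. FLI1 marks 3 places, at TAP2, at PSMB8 (3 of 4 libraries) and between TAP1 and PSMB9; H3K27ac is in both libraries at TAP2 alone.

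NLRC5, the transactivator of class I genes, had no region of any mark within 1 kb of its start (chr16:56989557) in any of the 10 libraries. The nearest FLI1 region was 23264 bases away in set B replicate 1 and 57624 to 57807 bases in the other three. Over the gene and 10 kb either side, a window of more than 100 kb, FLI1 was listed in set B replicate 1 with a fold of 7.93 and H3K27ac in replicate 1 with a fold of 5.34. Both lie just past the 3′ end of the gene (chr16:57084481-57084685 and chr16:57084528-57084727), and each came from 1 library. The nearest H3K27me3 was 358118 bases away or more, so the start was free of listed repressive as well as active regions. Absence from a list means that no region reached the authors' threshold, not that the protein or mark is absent.

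**Figure D5:**
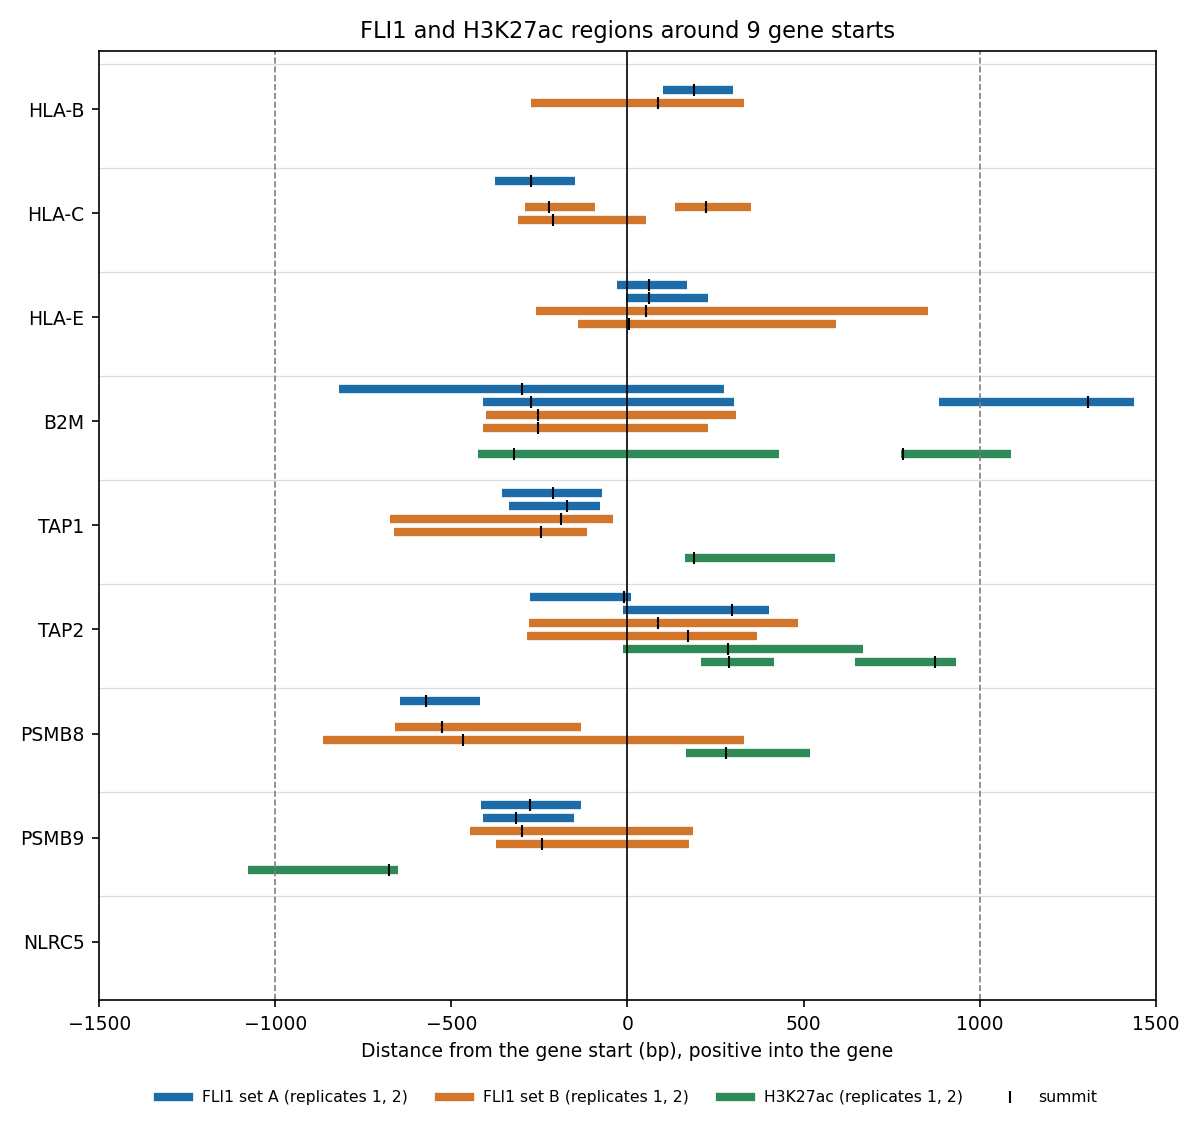
Bars are the FLI1 and H3K27ac regions within 1.5 kb of each gene start, 1 row per library from top to bottom (FLI1 set A replicates 1 and 2, set B replicates 1 and 2, H3K27ac replicates 1 and 2), with ticks at summits and dashed lines at 1 kb. The strongest FLI1 summits lie upstream of B2M, TAP1, PSMB8 and PSMB9 and inside HLA-B and HLA-E, and NLRC5 is empty.

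The libraries differed in how they ranked these starts. The median percentile of −log10 q over the FLI1 regions at the class I starts was 47.4 and 43.1 for set A, then 83.8 and 70.7 for set B. That is a mean of 61.3 ± 19.3 (SD, n = 4). Over the regions at all protein-coding starts it was 64.6, 65.0, 71.2 and 68.7, a mean of 67.4 ± 3.12. The class I starts thus ranked below the typical start in both set A libraries and above it in both set B libraries. In set B replicate 2 the gap was narrow, at 70.7 against 68.7. With 2 libraries in each set no test was made, and the genes differed in it. At HLA-B, HLA-E, B2M, TAP2 and PSMB8 each listed set B percentile was above each listed set A percentile, narrowly at B2M and at TAP2 mainly through replicate 1. HLA-B rests on 1 library of each set, and PSMB8 on 1 of set A. At HLA-C, TAP1 and PSMB9 the sets overlapped by −log10 q, and by percentile of fold each listed set A value was above each set B value. In set A the lists held 35210 and 40590 FLI1 regions, in set B 38221 and 29339, and FLI1 was within 1 kb of 42.7%, 42.4%, 52.2% and 48.7% of all starts. The class I counts in the same libraries were 7, 6, 8 and 7. Fragments at the summit, solved from fold and p, had a median of 17, 15, 17 and 22 over each list. H3K27ac lists were shorter, at 10219 and 17366 regions, and held 2 and 4 of the class I starts.

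The repressive marks lay at a distance from the starts. Upstream of HLA-E, H3K27me3 was listed in both replicates (chr6:30479928-30482462, fold 5.93, and chr6:30480507-30482218, fold 5.96), 7047 and 7291 bases from the start. These ranked high in their lists, at the 93.3 and 93.1 percentile, and a low FLI1 region of fold 5.31 from set B replicate 1 lay over them. The H3K27me3 in the PSMB9 window lay downstream, 11693 and 11641 bases from its start, with folds of 4.61 and 5.27. H3K9me3 was listed in both replicates downstream of HLA-C, from 8397 and 8434 bases on, with folds of 5.16 in replicate 1 and of 4.89 and 5.86 in replicate 2. In both replicates it was also listed upstream of B2M, 8140 and 8325 bases away within PATL2, with folds of up to 5.09 and 5.37. At HLA-E a single H3K9me3 region of fold 4.54 came from replicate 1.

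Promoter sequence from RefSeq (GRCh38.p14) matched the canonical start of 7 of the 9 genes, and these bases were the same as in hg38. HLA-E and NLRC5 had no entry. Motifs were searched on both strands in the 250 bases upstream, beside 34943 promoters of the same length, and matches may overlap. GGAA was found in 7 of 7, as in 92.7% of all promoters, and the longer ETS site CCGGAA in 0 of 7, against 14.5%. CCAAT, the core read by NF-Y, was in 5 of 7 (HLA-B, HLA-C, B2M, TAP1 and PSMB9), against 32.0%. The TAP1 match, 249 bases upstream, and the PSMB9 match, 243 bases upstream, are the same site between their starts, counted for each gene. TGACG, the half-site read by CREB and ATF factors, was in 5 of 7 (HLA-B, HLA-C, B2M, TAP2 and PSMB9), against 21.2%. GAAANNGAAA, the core of an interferon-stimulated element, was in 3 of 7 (TAP1, TAP2 and B2M), against 3.02%, and an NF-kB site in 4 of 7 (HLA-B, HLA-C, TAP1 and B2M), against 9.95%. In B2M the interferon core and an ETS core overlap, 144 and 139 bases upstream, and the FLI1 regions of all 4 libraries cover that stretch. In TAP1 the interferon core begins 134 and 128 bases upstream, at the left end of the printed stretch. A match describes the letters and is not a site shown to be bound.

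Genes that act with these 9 were read from lists of the same pathway. Among 8 genes for peptide loading, folding and trimming, FLI1 was at the start in all 4 libraries at 6 (75%, against 35.4% of all genes) and H3K27ac in both at 6 (75%, against 12.4%). HSPA5, the endoplasmic reticulum chaperone BiP, had the highest mean FLI1 percentile of the list, 91.5, with folds from 17.5 to 28.0 and no H3K27ac at its start. TAPBPL, a tapasin-like peptide editor, had both, with FLI1 folds of 20.1, 13.1, 8.24 and 10.0 and H3K27ac folds of 7.01 and 6.89. CANX and CALR, lectin chaperones of heavy chains, each had FLI1 in all 4, and CANX had H3K27ac in both libraries, at 4.36 and 5.04. ERAP2, a peptidase that trims peptides, was chosen after its values were seen: it had H3K27ac folds of 6.79 and 12.0 and no FLI1 region at its start in any library.

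Among 7 genes of the proteasome and its activator, FLI1 was at the start in all 4 libraries at 5 (71.4%, against 35.4% of all genes) and H3K27ac in both at 1 (14.3%, against 12.4%, so near the share of all genes). That one was PSMB10, the immunoproteasome subunit encoded outside the MHC, with FLI1 folds of 16.2, 22.2, 22.2 and 17.2 and H3K27ac folds of 5.92 and 6.54. All 4 FLI1 values at PSMB10 were higher than those at PSMB9 in the same library. PSME2, a chain of the PA28 activator, had FLI1 folds from 18.1 to 30.5. PSMB5, the constitutive subunit that PSMB8 replaces, had folds from 10.3 to 15.4 and no H3K27ac at its start. PSME3, the nuclear activator, had folds from 11.0 to 21.9.

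Among 17 genes of interferon signalling and transcription, FLI1 was at the start in all 4 libraries at 11 (64.7%, against 35.4% of all genes). H3K27ac was there in both at 3 (JAK2, STAT2 and IRF3, 17.6%, against 12.4%) and H3K27me3 in both at 1 (5.88%, against 9.96%). IRF3, a transcription factor of the innate response, had FLI1 folds of 35.6, 24.2, 38.6 and 24.1, with H3K27ac at 6.36 and 6.80. IFNGR1, a chain of the interferon-gamma receptor, had FLI1 folds of 11.0, 11.1, 21.4 and 20.9, and JAK1, a kinase that relays its signal, had FLI1 in all 4 libraries. IRF8, a factor of myeloid and lymphoid cells, was the gene with H3K27me3 at the start, at folds of 4.69 and 4.90, and had no FLI1 there.

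Of 9 genes for the factors that assemble on the class I promoter, FLI1 was at the start in all 4 libraries at 6 (66.7%, against 35.4% of all genes) and H3K27ac in both at 0 (against 12.4%). H3K27ac was at the start in 1 library at RFX5, RFXANK, CREB1, ATF1, NFYA, NFYB and NFYC. Over all genes, 25.1% had it in at least 1 library. NFYC and NFYA, chains of NF-Y, had mean FLI1 percentiles of 95.2 and 94.9, and RFXANK and RFX5, of the RFX complex, 92.0 and 81.9. CIITA, the class II counterpart of NLRC5, differed from it: it carried H3K27me3 at its start in both libraries, with folds of 5.99 and 5.89, and had no FLI1 there. These lists were drawn up with earlier results known, and no test was made of any of them.

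Few genes shared the exact pattern of presence over the 10 lists of some of the 9, and many shared that of others. PSMB8 shared its pattern (FLI1 in 3 libraries, H3K27ac in replicate 1) with 30 other genes (0.15% of all), and HLA-B with 62, of which PSORS1C1 lies in the same interval. HLA-C shared its pattern with 316, among them LY6G5C. B2M, TAP1 and PSMB9 had the same pattern as each other and as 1195 genes each (5.98%), with ATF1, CREB1, DXO, EHMT2 and FCGRT among those in the interval or lists. TAP2 shared the pattern of both marks with 1743 (8.73%), among them ABHD16A, BAG6, BRD2, C6orf136 and C6orf47. HLA-E shared that of FLI1 alone with 3507 (17.6%), among them ABCF1, AGPAT1 and ATF6B. NLRC5 shared the empty pattern with 5927 (29.7%), among them AGER, AIF1, APOM, C2 and C4A.

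The labelled cell type was read from marker genes at the same 1 kb windows. Of 8 genes linked to Ewing sarcoma, 7 had FLI1 at the start in all 4 libraries (87.5%, against 35.4% of all genes) and CD99 had none in any. H3K27ac was at the start in both libraries at 1 of the 8, STEAP1 (12.5%, against 12.4%). Of 6 immune cell markers and of 6 endothelial, epithelial and fibroblast markers, 0 had FLI1 in all 4 and 0 had H3K27ac in both. Peak lists do not measure RNA or surface protein, so nothing here gives the amount of class I the cells display.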

How the data were processed

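CUT&RUN libraries of TC-32 cells (4 FLI1, 2 H3K27ac, 2 H3K27me3, 2 H3K9me3, 4 IgG) are grouped by the labels' titles. Per the submitters' processing notes, cutadapt 4.4, Bowtie2, Picard 2.17.11, MACS2 2.1.1 and GRCh38 were used. As the file headers and names have it, the authors ran each library by itself against its own set's IgG of equal number. The authors deposited, for each peak, a fold (a ratio of signal to control), a −log10 p and −log10 q, and a score. The deposited score was not used. The lowest deposited −log10 q was 2.00. These values depend on each library's depth, so they were compared across libraries as percentiles within a list.

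Overlapping rows of a list were merged, keeping the most significant. A region counted with at least 1 base in the window, by canonical start in GENCODE 44. Fragments at the summit were solved from fold and p, assuming a Poisson p and a pseudocount of 1, an assumption the deposited files leave unstated. From 98.1% to 100% of 1000 peaks in each narrow list had a solution. On data simulated under the same assumption, the right number was returned for 100% of the peaks with 1 solution. That simulation cannot check the assumption itself. The fragment numbers cover counting error only, and read totals and spike-in reads were not used. No test was made: counts are set beside the share of all protein-coding genes. The genes and lists were chosen with earlier results of these data known. From each list, up to 4 genes with FLI1 in all 4 or H3K27ac in both libraries were named, by mean FLI1 percentile (absent as 0), and each with a repressive mark in both; 1 gene this rule selects is not reported here. Alternatives covered windows, starts, thresholds and leaving out libraries. Python 3.11.15 was used with numpy 2.4.6, scipy 1.17.1, pysam 0.24.0, Biopython 1.88 and matplotlib 3.10.9.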

Additional observations from a re-analysis of the deposited data

How the results depend on the processing

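Of 89 alternatives, 72 kept the counts and values within the limits set and 17 moved them. Percentages in brackets are the share of all protein-coding genes under the same setting. The FLI1 count of 5 starts (35.4%) became 3 (23.2%) with regions above the median −log10 q of their list. With a region in any library it was 8 (56.6%). It became 4 (33.8%) with the start of the gene record and 4 (32.2%) at a −log10 q of at least 5. Leaving out 1 library in turn gave 5 to 7 (35.9% to 38.2%), the highest count without set A replicate 2. The H3K27ac count of 1 start (12.4%) became 2 (14.8%) with the start of any protein-coding transcript. It was 0 (2.84%) at a −log10 q of at least 5 and 5 (25.1%) with a region in any library. With 1 of its 2 libraries left out in turn it ranged from 2 (16.1%) to 4 (21.5%). Counts within the limits could still shift, as did the FLI1 count of 6 (56.3%) over the gene and flanks. It was 4 (42.1%) with no flank and 4 (40.2%) above the median −log10 q. With 50 kb it was 8 (73.9%), and with a region in any library 9 (76.5%). Over the gene and flanks, the H3K27ac count of 4 (28.3%) became 1 (20.7%) with no flank and 0 (7.86%) at a −log10 q of at least 5. The H3K27me3 count of 2 (17.6%) became 0 (13.7%) with no flank, 0 (15.7%) with 5 kb and 5 (29.4%) with 50 kb. It was 1 (13.3%) above the median −log10 q and 1 (6.53%) at a −log10 q of at least 5. The H3K9me3 count of 2 (25.3%) became 0 (18.7%) with no flank, 0 (21.7%) with 5 kb and 0 (7.56%) at a −log10 q of at least 5. The cause was not tested beyond the change of window or threshold itself. The counts of 0 repressive starts did not move under any alternative run. Under these the share of all genes ran from 4.03% to 12.4% for H3K27me3 and from 0.265% to 5.16% for H3K9me3. No paired analysis was possible because the values come from no test, and H3K27ac and the repressive marks were made in different sets. Depth limits what absence means: the median FLI1 summit rests on 15 to 22 fragments, and weaker binding would not be listed.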

Other observations

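Class II genes present peptides from outside the cell. Of 12 such genes, 2 had FLI1 at the start in all 4 libraries, against 35.4% of all genes (HLA-DMB, with folds from 6.56 to 11.0, and HLA-DPA1, from 5.58 to 11.1), and 0 had H3K27ac in both, against 12.4%. HLA-DQB1 had H3K27me3 at its start in both libraries, with folds of 5.20 and 6.23. Over the gene and 10 kb either side, 4 of 12 had H3K27me3 in both libraries (HLA-DQB1, HLA-DPA1, HLA-DPB1 and HLA-DOA), 33.3% against 17.6% of all genes. The difference from the class I genes was not tested.

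Of 8 other class I and class I-like genes, 3 had FLI1 at the start in all 4 libraries, 37.5% against 35.4% of all genes. MICA and MICB, stress ligands of the NKG2D receptor, had folds from 6.75 to 18.4 and from 3.76 to 28.0, both highest in set B replicate 1. FCGRT, the neonatal Fc receptor, had folds from 9.14 to 24.5, again highest in set B replicate 1. MR1 and HFE had H3K27ac at the start in both libraries, and FLI1 there in 1 and 3. CD1D, which presents lipids, had H3K27me3 at its start at folds of 6.04 and 6.44 and no FLI1.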
